A study of Bos taurus with 35 samples.

Results

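The genes described here are 20 genes for spliceosomal proteins, RNA helicases and RNA-binding motif proteins in beef *longissimus thoracis* muscle, out of 27607 genes in the count table. They were chosen by symbol and by outcome. The symbols were taken from the study's list of differentially expressed (DE) genes, and each gene whose symbol started with SRSF, SNRP, HNRNP, SF3, LSM and a digit, PRPF, DDX, DHX or RBM was kept, so that every one of them had already been called DE against 0 h. All 20 stood on the lists of 72 h, and RBM27 and RBM47 also stood on the downregulated list of 48 h. The copy of the lists used here lacked 257 rows of the genes downregulated at 72 h, and genes with any of these prefixes may be among them. No row of the genes upregulated at 72 h was missing, so that the loss is on the downregulated side only. A bovine reference gene table holds 175 symbols with these prefixes. The 20 genes are 8 of its 34 SNRP, SF3 and LSM symbols, 4 of its 64 SRSF, DDX and DHX symbols, 7 of its 44 RBM symbols and 1 of its 33 PRPF and HNRNP symbols, and the other symbols could not be matched to the gene identifiers of the count table.

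The samples came from 7 crossbred (British × Continental) beef heifers that weighed 525 to 635 kg. Core muscle samples were taken from the left carcass side first 45 min after death (0 h) and then 6, 24, 48 and 72 h *post-mortem*, with the carcass kept in a drip cooler, which gives 5 time points with 7 animals each and 35 RNA-Seq libraries. All animals were slaughtered and all carcasses chilled alike, so that no group of the study is untreated and the comparison is with 0 h of the same carcass. The libraries held 20568418 to 104275821 counted reads (median 40133660), and 14630 genes passed the filter on low counts and were tested, including all 20 genes described here. The 7 animals are the replicates, and the 5 samples of an animal are repeated cores of the same carcass.

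Pre-mRNA splicing is carried out by the spliceosome, whose core particles each hold a small nuclear RNA wrapped by a ring of Sm or LSm proteins, together with particle-specific subunits such as those of SF3A and SF3B. SR proteins bind exons and help to recruit these particles, and RNA helicases of the DEAD and DEAH box families unwind RNA or remodel RNA-protein complexes in splicing, ribosome assembly, translation and RNA decay. RBM is a naming series for proteins with an RNA recognition motif and is not a functional family, and its members act in splicing, RNA modification, editing and decay.

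Levels are given as CPM (counts scaled to a fixed library size) after TMM normalization, which are not divided by gene length and are therefore compared between time points and not between genes. Against 0 h, DE meant a fold change above 1.5 together with an FDR below 0.05, where the FDR is the p-value of edgeR's quasi-likelihood test after Benjamini-Hochberg adjustment. Since these comparisons with 0 h chose the genes, the values against 0 h are a description and carry no test.

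At 72 h the 8 SNRP, SF3 and LSM genes among the 20 were higher than at 0 h and the 3 helicase genes were lower. This describes genes that were listed because they were called at 72 h, and not their whole families. Downregulated genes of each family may be among the missing rows. Of the 20 genes, 12 were upregulated and 8 were downregulated, while over all tested genes 9.8% were upregulated and 15.4% downregulated, a background from which nothing is read here because the calls at 72 h are what chose the genes. The 12 upregulated genes were the 8 SNRP, SF3 and LSM genes, PRPF40B, SRSF11, RBM25 and RBMX2. The 8 downregulated genes were DDX3X, DHX33, DHX36, RBM15, RBM18, RBM27, RBM33 and RBM47. The genes closest to the fold change threshold (0.585 on the log2 scale) were SF3A2 and PRPF40B, each with a log2 fold change of 0.59, and RBM15 with -0.60, and the gene farthest from it was RBM47 with -1.46. Genes just outside the threshold could not be named, because only DE genes carried a symbol.

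**Figure D1:**
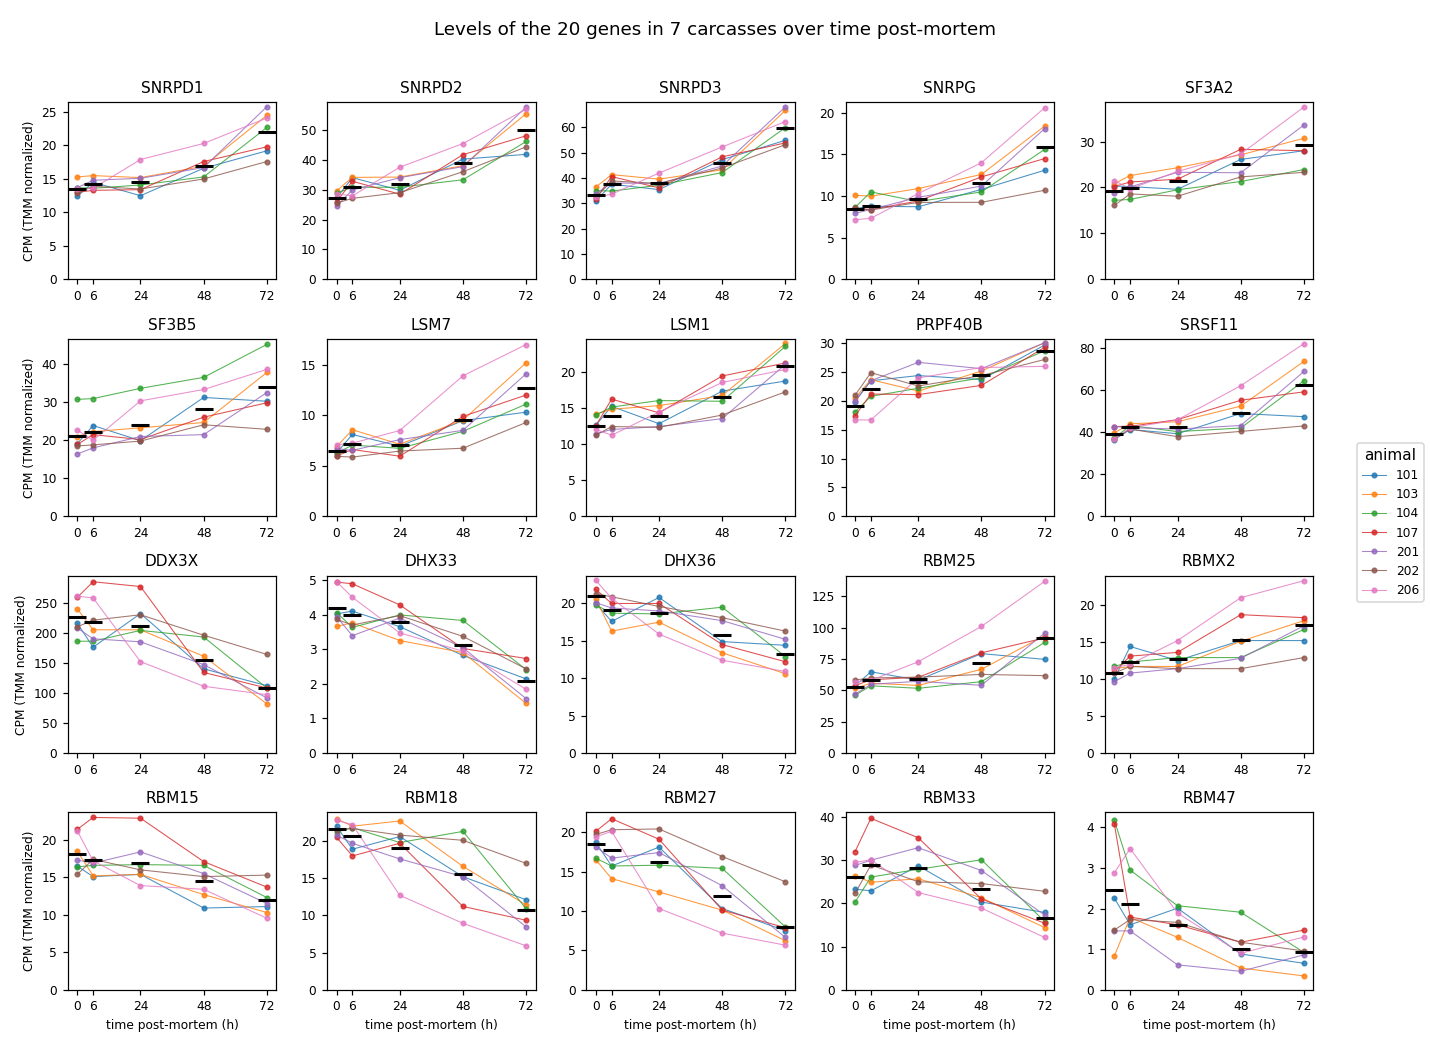
CPM (TMM normalized, linear axis from 0) of each of the 20 genes against time *post-mortem* in h, with 1 line per animal and a black bar at the mean of the 7 animals. SNRPD3 reaches 53.1 to 68.0 CPM at 72 h against 30.9 to 36.4 CPM at 0 h, whereas DDX3X falls from between 186 and 261 CPM to between 81.6 and 164 CPM.

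The Sm proteins SNRPD1 (ENSBTAG00000008292), SNRPD2 (ENSBTAG00000012177), SNRPD3 (ENSBTAG00000021262) and SNRPG (ENSBTAG00000053210) form part of the ring that is loaded on most spliceosomal small nuclear RNAs. SNRPD2 was at 24.5 to 29.6 CPM at 0 h (median 27.2) and at 41.8 to 57.6 CPM at 72 h (median 48.0), a 1.83-fold level (log2 fold change 0.88, SE 0.07). SNRPD3 went from 30.9 to 36.4 CPM (median 32.3) to 53.1 to 68.0 CPM (median 59.8), which was 1.80-fold (0.85, SE 0.06). In both genes the lowest carcass at 72 h was above the highest at 0 h, and the ranges were already apart at 48 h, when SNRPD2 was at 33.3 to 45.4 CPM and SNRPD3 at 42.1 to 52.2 CPM. SNRPD1 had 12.4 to 15.3 CPM at 0 h (median 13.5) and 17.6 to 25.8 CPM at 72 h (median 22.7), with a log2 fold change of 0.69 (SE 0.06). SNRPG had 7.15 to 10.1 CPM at 0 h (median 8.52) and 10.7 to 20.6 CPM at 72 h (median 15.6), with a log2 fold change of 0.88 (SE 0.09). All 4 Sm genes were thus higher in all 7 animals, and their ranges at 0 h and 72 h did not overlap. SNRPG varied most between animals, with differences of 0.32 to 1.52 on the log2 scale, whereas those of SNRPD3 stayed between 0.72 and 1.01. Small ribonucleoprotein genes of this kind often have near-identical processed copies, and reads shared with such copies may have been lost or misplaced in the counting, so their levels are less certain than their sampling error.

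SF3A2 (ENSBTAG00000025452) and SF3B5 (ENSBTAG00000009795) are subunits of the complexes that let the U2 particle bind the branch point of an intron. SF3A2 was at 16.1 to 21.5 CPM at 0 h (median 20.2) and at 23.3 to 37.5 CPM at 72 h (median 28.0), a 1.51-fold level (log2 fold change 0.59, SE 0.05). SF3B5 was at 16.4 to 30.8 CPM at 0 h (median 19.1) and at 22.9 to 45.3 CPM at 72 h (median 32.6), a 1.61-fold level (0.69, SE 0.08). Animal 104 had the highest SF3B5 at both times, and with it the ranges of SF3B5 overlapped even though the gene was higher at 72 h in all 7 animals. The ranges of SF3A2 did not overlap.

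LSM7 (ENSBTAG00000004521) belongs both to the nuclear LSm ring of the U6 particle and to the cytoplasmic ring of mRNA decapping, and LSM1 (ENSBTAG00000001612) belongs only to the cytoplasmic ring, so that LSM1 is in the class by its symbol and not as a spliceosomal protein. LSM7 went from 5.93 to 7.07 CPM (median 6.26) to 9.28 to 17.0 CPM (median 12), which at 1.95-fold (log2 fold change 0.96, SE 0.09) was the largest rise among the 20 genes. LSM1 went from 11.2 to 14.1 CPM (median 12.5) to 17.2 to 23.9 CPM (median 21.0), a 1.66-fold level (0.73, SE 0.06). Neither gene had overlapping ranges. The median log2 fold change of the class at 72 h was 0.79 with LSM1 and 0.85 without it, beside 0.01 over all tested genes.

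PRPF40B (ENSBTAG00000016589), a relative of the yeast splicing factor that associates with the U1 particle, was at 16.7 to 21.0 CPM at 0 h (median 19.9) and at 26.0 to 30.1 CPM at 72 h (median 29.3), a 1.51-fold level. Its log2 fold change against 0 h was 0.21 by 6 h and 0.29 by 24 h, values that use the 0 h libraries that took part in its choice. At 24 h against 6 h PRPF40B differed by 0.08 (SE 0.06, edgeR FDR 0.86). SRSF11 (ENSBTAG00000015474), a serine/arginine-rich protein and the only SRSF gene of the 20, was at 36.4 to 42.6 CPM at 0 h (median 37.1) and at 42.9 to 82.0 CPM at 72 h (median 64.4), with a log2 fold change of 0.67 (SE 0.08). The SR gene therefore went with the core particle genes and not with the helicases. Its lowest carcass at 72 h, that of animal 202, was only just above the highest at 0 h.

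The 3 helicase genes fell. DDX3X (ENSBTAG00000035907), a DEAD box helicase with roles in translation initiation, was at 186 to 261 CPM at 0 h (median 216) and at 81.6 to 164 CPM at 72 h (median 108), a 2.10-fold lower level (log2 fold change -1.07, SE 0.13). DHX33 (ENSBTAG00000032083), a DEAH box helicase linked to ribosomal RNA synthesis, was at 3.66 to 4.95 CPM at 0 h (median 4.02) and at 1.43 to 2.73 CPM at 72 h (median 2.14), a 2.03-fold lower level (-1.02, SE 0.09). DHX36 (ENSBTAG00000006142), a DEAH box helicase that unwinds G-quadruplexes, was at 19.8 to 23.1 CPM at 0 h (median 20.6) and at 10.6 to 16.3 CPM at 72 h (median 12.9), a 1.6-fold lower level (-0.68, SE 0.08). All 3 were lower in all 7 animals, with ranges that did not overlap, and DHX36 was below its 0 h range already at 48 h (12.4 to 19.5 CPM). Animal 202 kept the highest DDX3X at 72 h, 164 CPM against 112 CPM in the next animal. None of these 3 is among the helicases that drive the steps of the splicing cycle itself.

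The 7 RBM genes did not move in 1 direction. RBM25 (ENSBTAG00000017177), a regulator of alternative splicing, rose from 46.1 to 58.2 CPM (median 53.6) to 61.7 to 137 CPM (median 91.8), and RBMX2 (ENSBTAG00000014771), a spliceosome component, from 9.64 to 11.7 CPM (median 11) to 12.9 to 23.3 CPM (median 17.2). These were 1.73-fold and 1.58-fold levels, with non-overlapping ranges. Among those that fell, RBM15 (ENSBTAG00000012555), which guides the methylation of adenosine in RNA, went from 15.4 to 21.4 CPM (median 17.3) to 9.54 to 15.3 CPM (median 11.5), and animal 202 hardly changed, with a difference of -0.01 on the log2 scale. RBM18 (ENSBTAG00000016367) went from 20.5 to 23.0 CPM (median 21.5) to 5.90 to 17.0 CPM (median 10.9), a 2.07-fold lower level. RBM27 (ENSBTAG00000011642), which binds polyadenylated RNA in the nucleus, went from 16.5 to 20.1 CPM (median 18.7) to 5.65 to 13.7 CPM (median 7.50), a 2.38-fold lower level. RBM18 and RBM27 had no carcass at 72 h within their 0 h range.

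RBM33 (ENSBTAG00000010243) went from 20.3 to 32.0 CPM (median 26.4) to 12.1 to 22.8 CPM (median 15.8), and RBM47 (ENSBTAG00000002356), a cofactor of RNA editing, from 0.832 to 4.18 CPM (median 2.26) to 0.339 to 1.47 CPM (median 0.920). The ranges of both overlapped between 0 h and 72 h, and RBM33 was lower in 6 of 7 animals and slightly higher, by 0.03 on the log2 scale, in the other. RBM47 had the largest fitted change of the 20 genes (log2 fold change -1.46, SE 0.22) and the fewest reads, 15 to 236 per library with a median of 58. All told, 11 of the 12 upregulated genes and 6 of the 8 downregulated genes had no overlap between their 0 h and 72 h ranges, where 7.9% of all tested genes lay wholly above and 10.1% wholly below, and 19 of the 20 genes had the same direction in all 7 animals. These counts come from the comparison that chose the genes. With the RNA integrity number (RIN) of each sample as a covariate, 8 of the 20 were called upregulated and 5 downregulated at 72 h. The share of all tested genes called in that fit is not given here. A general loss of calls can therefore not be told from a loss in these genes. According to the study, the mean RIN was slightly lower at the later time points. The covariate thus follows time in part, and the part of RIN alone was not tested.

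**Figure D2:**
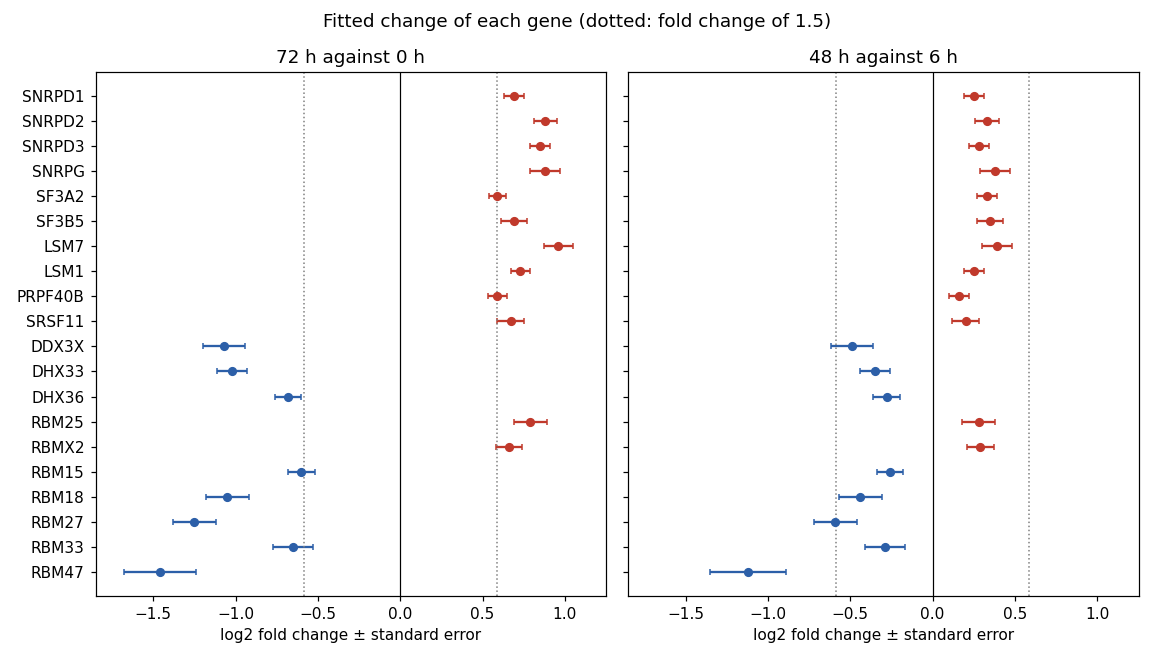
Fitted log2 fold change with its standard error for each of the 20 genes (vertical axis), at 72 h against 0 h (left) and at 48 h against 6 h (right), red above 0 and blue below, with dotted lines at a fold change of 1.5. At 72 h every gene lies outside the dotted lines because it was chosen there. At 48 h against 6 h only RBM27 (-0.59) and RBM47 (-1.12) do, the 2 genes that were also called at 48 h against 0 h.

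The choice of the genes at 72 h, with 18 of the 20 on no earlier list, fixes that few of them were called at earlier times, so that the following counts are a description. At 6 h none of the 20 genes was called in either direction by edgeR's quasi-likelihood test (0 of 20 also by DESeq2 and limma voom). Over all tested genes 0.349% were upregulated and 0.185% downregulated. At an unadjusted p below 0.05 of edgeR's test, 5 genes were higher and 0 lower. The share of all tested genes at an unadjusted p is not given here, so that nothing is read from such counts. The FDR alone gave 0 of 20 in both directions there (all genes: 1.28% higher, 0.895% lower). At 24 h again no gene passed both thresholds (all genes: 0.725% upregulated, 0.95% downregulated), with 8 genes higher and 2 lower at an unadjusted p below 0.05, and limma voom called 1 downregulated gene. By the FDR alone 3 genes were higher and 0 lower (all genes: 4.07% and 2.64%). At 48 h only RBM27 and RBM47 were downregulated and no gene was upregulated (all genes: 6.3% and 2.96%). At that time 12 genes were higher and 7 lower at an FDR below 0.05 alone, where 21.9% and 23.5% of all tested genes were, and the CPM ranges of 0 h and 48 h did not overlap in 3 genes that were higher (SNRPD2, SNRPD3 and PRPF40B) and in DHX36, which was lower (all genes: 3.11% and 3.34%).

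The class medians against 0 h were read under the same limit. The SNRP, SF3 and LSM genes had a median log2 fold change against 0 h that went from 0.12 (6 h) over 0.17 (24 h) and 0.43 (48 h) up to 0.79 (72 h). In the same order, for the SRSF, DDX and DHX genes the medians were -0.07, -0.13, -0.42 and -0.85, and for the RBM genes -0.07, -0.11, -0.34 and -0.65. Some of the early medians depended on single animals. Without animal 206 those of 24 h were -0.04 for the SRSF, DDX and DHX genes and -0.03 for the RBM genes. Without animal 107 that of the RBM genes at 6 h was 0.05. Leaving out 1 animal kept the median of the SNRP, SF3 and LSM genes between 0.09 and 0.15 at 6 h and between 0.15 and 0.19 at 24 h. The median of all tested genes stayed within 0.014 of 0 at each time. Of the fitted change at 72 h, 24.3% (RBM33) to 85.8% (RBM47) was present at 48 h, with a median of 54.9% over the 20 genes. The step from 48 to 72 h was the largest of the 4 steps in 17 genes, and the step from 24 to 48 h was the largest in RBMX2, SF3A2 and RBM47. Both the shares and the order of the steps use the 0 h and 72 h values that chose the genes, which enlarges the last step and can enlarge the first.

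Only the comparisons among 6 h, 24 h and 48 h rest on libraries that listed none of the genes, apart from RBM27 and RBM47. These 2 are left out of the counts because they were called at 48 h against 0 h. Leaving them out uses the 48 h libraries, and it makes a call past both thresholds at 48 h against 6 h less likely among the others. The 18 other genes were compared at 24 h against 6 h and at 48 h against 6 h in the same fit. Both comparisons share the 6 h libraries, and all come from the same 7 carcasses as the 72 h libraries. At 24 h against 6 h none of the 18 genes differed by edgeR's quasi-likelihood test, with or without the fold change threshold (0 also by DESeq2 and limma voom, and 0 at an unadjusted p below 0.05), where 0.00684% of all tested genes were upregulated and 0.54% downregulated, or 0.0342% and 0.588% by the FDR alone. Their log2 fold changes lay between -0.13 (RBM18) and 0.14 (SNRPG).

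At 48 h against 6 h the 18 genes already differed in the directions they had at 72 h. None of the 18 passed both thresholds (all genes: 0.991% upregulated, 4.79% downregulated), also by DESeq2 and limma voom (0 of 18). That none of the 18 differed by more than 1.5-fold follows in part from leaving out RBM27 and RBM47, which did. By the FDR of edgeR's quasi-likelihood test alone, 11 of the 18 were higher and 5 were lower, where 15.7% of all tested genes were higher and 17.4% lower. At an unadjusted p below 0.05 the numbers were 12 and 6, which again stand without the share of all tested genes. The 2 that missed the FDR threshold were SRSF11, with a log2 fold change of 0.20 (SE 0.08, edgeR FDR 0.061), and RBM33, with -0.29 (SE 0.12, edgeR FDR 0.057). Early movement of this kind was common among genes that were DE at 72 h and not yet at 48 h. Of 1059 such genes that were upregulated at 72 h, 55.1% were higher at 48 h against 6 h by the same FDR, and of 1388 downregulated ones 64.1% were lower.

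All 8 SNRP, SF3 and LSM genes were among the 11 that were higher. SF3A2 was at 17.4 to 22.6 CPM at 6 h (median 20.1) and 21.3 to 28.3 CPM at 48 h (median 26.1), with a log2 fold change of 0.33 (SE 0.06, edgeR FDR 0.00021). SNRPD3 was at 33.6 to 41.3 CPM at 6 h (median 38.0) and 42.1 to 52.2 CPM at 48 h (median 44.7), with 0.28 (SE 0.06, edgeR FDR 0.0007). Both were higher at 48 h in all 7 animals, and the ranges of SNRPD3 did not overlap. SNRPD2 differed by 0.33 (edgeR FDR 0.00083), SF3B5 by 0.35 (FDR 0.0015) and LSM7 by 0.39 (FDR 0.0015), each higher in 7 of 7 animals with overlapping ranges. The smallest differences of the class were those of SNRPD1 and LSM1, 0.25 each (edgeR FDR 0.0024 and 0.0046), and SNRPG differed by 0.38 (FDR 0.0037) with 6 of 7 animals higher. RBMX2 (0.29, edgeR FDR 0.0075), RBM25 (0.28, FDR 0.027) and PRPF40B (0.16, FDR 0.038) were the other genes that were higher, each in 6 of 7 animals.

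The 3 helicases were all among the 5 genes that were lower at 48 h than at 6 h. DDX3X was at 176 to 285 CPM at 6 h (median 205) and 111 to 196 CPM at 48 h (median 147), with a log2 fold change of -0.49 (SE 0.13, edgeR FDR 0.005). DHX33 was at 3.39 to 4.89 CPM at 6 h (median 3.76) and 2.82 to 3.83 CPM at 48 h (median 3.02), with -0.35 (SE 0.09, edgeR FDR 0.0056). DHX36 was at 16.3 to 20.9 CPM at 6 h (median 19.4) and 12.4 to 19.5 CPM at 48 h (median 14.9), with -0.28 (SE 0.08, edgeR FDR 0.0098). Each was lower in 6 of 7 animals, and the ranges overlapped in all 3. RBM18 (-0.44, edgeR FDR 0.0092, lower in 7 of 7 animals) and RBM15 (-0.26, FDR 0.02, lower in 6 of 7) were the other 2.

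The number of these calls depended on the animal block, on single animals and on RIN. In a fit without the animal block, 6 genes were higher and 1 was lower at 48 h against 6 h, of which 6 were core class genes and 1 was DDX3X, and without animal 107 the lower genes numbered 3. With RIN as a covariate 8 genes were higher, all of the core class, and 3 were lower, of which 2 were helicases. The share of all tested genes is not given for the fits without the block, without an animal or with RIN. A general loss of calls can therefore not be told from a loss in these genes. As at 72 h, RIN follows time in part. Across the 16 other settings tried, all 8 SNRP, SF3 and LSM genes kept an FDR below 0.05 in 15, and all 3 helicases did in 13. DDX3X, LSM7, SF3A2, SNRPD1, SNRPD2, SNRPD3 and SNRPG kept it in every one of the 16.

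**Figure D3:**
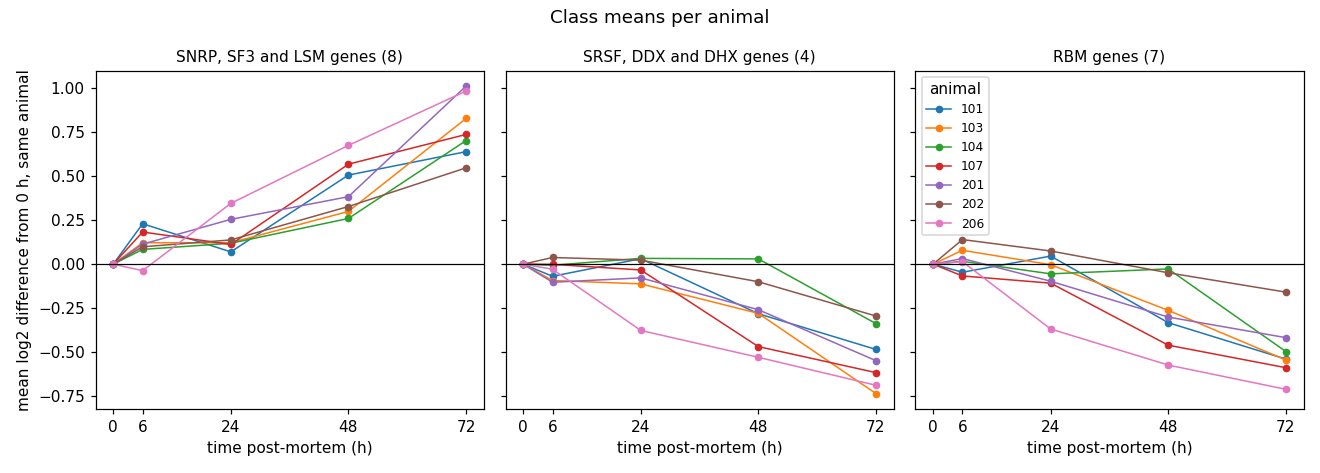
Mean log2 difference from 0 h of the same animal (vertical axis) against time *post-mortem* in h for the 8 SNRP, SF3 and LSM genes, the 4 SRSF, DDX and DHX genes and the 7 RBM genes, with 1 line per animal. The first class lies between 0.55 and 1.01 at 72 h in the 7 animals, and the third between -0.71 and -0.16.

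The gap between the core particle genes and the SR and helicase genes was followed within each animal, as the mean log2 difference from 0 h of the 8 genes minus that of the 4 genes. The gap came to 0.15 ± 0.11 (SD, n = 7) by 6 h and 0.24 ± 0.23 by 24 h, then to 0.70 ± 0.34 by 48 h and finally 1.31 ± 0.31 by 72 h, and it was above 0 in 6 of 7 animals at 6 h and in 7 of 7 from 24 h. Against the 3 helicases alone it came to 1.71 ± 0.45 at 72 h, since SRSF11 rose. The genes were chosen on 72 h against 0 h, so that the gap at 72 h follows from the choice. The gaps at 6, 24 and 48 h are not free of it either, since they use the same 0 h libraries. In the libraries of 48 h against those of 6 h the gap was 0.55 ± 0.36, from 0.14 in animal 104 to 1.21 in animal 206, and at 24 h against 6 h it was 0.09 ± 0.31 and above 0 in 4 of 7 animals. These are descriptions of the 7 carcasses and were not tested.

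The carcasses differed in the size of the changes. Animal 206 was ahead from 24 h, with a mean log2 difference from 0 h of 0.363 for the 12 upregulated and -0.646 for the 8 downregulated genes at 24 h, when the other animals lay between 0.113 and 0.245 and between -0.185 and 0.055. At 6 h it was the lowest for the upregulated genes (-0.001, others 0.114 to 0.254) and within the others for the downregulated ones (-0.038, others -0.196 to 0.101). Each of these values comes from a single core per time point. Animal 202 was behind, with 0.442 and -0.355 at 72 h against 0.996 and -1.398 in animal 206. Without animal 202 the class medians at 72 h were 0.79 for the core class, -0.92 for the SR and helicase class and -0.79 for the RBM genes, and without animal 206 they were 0.75, -0.78 and -0.55. After the mean differences between animals and time points were removed, the 8 downregulated genes had a larger residual spread (median biological coefficient of variation 0.158) than the 12 upregulated ones (0.0932), beside 0.102 over all tested genes.

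A list of 73 other splicing genes was drawn up for comparison, of which 14 carried a symbol in the study's lists, all as DE genes at 72 h, so that this list too was in part chosen by the outcome. Of the 14, 10 were upregulated and 4 downregulated at 72 h, beside 9.8% and 15.4% of all tested genes, and nothing is read from this because those calls gave the symbols. Among the upregulated ones were SNRNP70, a U1 particle protein (log2 fold change 0.62), the minor spliceosome proteins SNRNP25 (0.82), ZMAT5 (0.69) and ZCRB1 (0.68), the tri-snRNP protein SNRNP27 (0.60), the U1-associated LUC7L (0.82) and LUC7L3 (0.79), and BUD31 (0.69) and ISY1 (0.65), which act in the activated spliceosome. SNRNP25 was at 41.4 to 54.5 CPM at 0 h (median 46.0) and at 71.2 to 99.9 CPM at 72 h (median 83.5), with no overlap. The downregulated ones were GEMIN5 (-0.78), which delivers small nuclear RNAs to the machinery that loads Sm proteins, PLRG1 (-0.59), a subunit of the Prp19 complex, SYNCRIP (-0.70), an hnRNP, and SRPK1 (-1.01), a kinase of SR proteins. SRPK1 fell from 12.6 to 15.4 CPM (median 14.2) to 4.96 to 9.54 CPM (median 7.20), while SRPK3 (0.66), a muscle kinase of the same family, rose from 62.1 to 81.1 CPM (median 74.2) to 92.6 to 125 CPM (median 122). At 48 h against 6 h, in libraries that did not choose them, the same 10 were higher and the same 4 lower at an edgeR FDR below 0.05 alone, beside 15.7% and 17.4% of all tested genes and beside the 55.1% and 64.1% among genes that were DE at 72 h and not yet at 48 h.

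**Figure D4:**
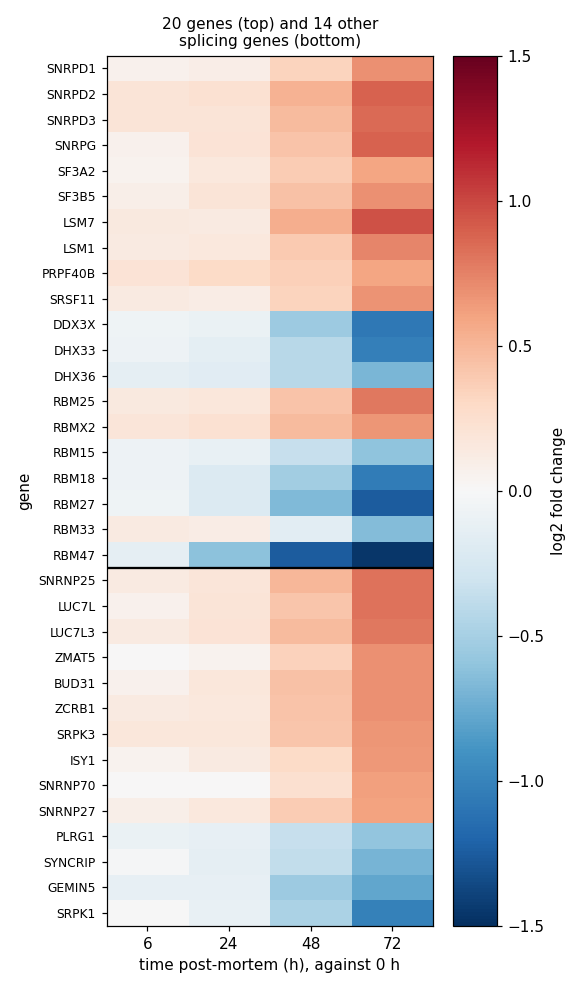
Fitted log2 fold change (colour, red above and blue below 0) against 0 h at 6, 24, 48 and 72 h for the 20 genes and, under the black line, 14 other splicing genes. Colours deepen from 24 h to 72 h in both blocks, and RBM33 is the only one of the 20 genes whose value changes sign, from 0.14 at 6 h to -0.65 at 72 h.

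Markers of cell types also changed over these hours. In bulk muscle, fewer cells of a type and less RNA per cell cannot be told apart. The named markers of muscle fibres (3 of the 10 listed: CKM, TNNT3 and MYOZ1) summed to 24392 to 29153 CPM at 0 h and 40157 to 58266 CPM at 72 h, with medians of 31698 CPM at 6 h, 31046 CPM at 24 h and 39099 CPM at 48 h. At 48 h against 6 h, CKM was higher by 0.28, TNNT3 by 0.4 and MYOZ1 by 0.32 on the log2 scale. In that comparison the 8 SNRP, SF3 and LSM genes were higher by 0.25 to 0.39. A link between the markers and these genes was not tested. T and NK cell markers (6 of 6) went from 6.44 to 11.6 CPM at 0 h to 13.2 to 17.8 CPM at 72 h, and their median went from 7.83 CPM at 6 h to 12.6 CPM at 24 h and was 15.2 CPM at 48 h and 15.3 CPM at 72 h. At 24 h against 6 h none of the 6 genes differed (edgeR FDR 0.6 to 0.96), and the sums overlapped (6.09 to 16.9 CPM at 6 h, 9.16 to 14.2 CPM at 24 h). At 48 h against 6 h CD3E, CD3D, CD2 and ZAP70 were upregulated, while CD8A and KLRD1 were not called. The median of this list hardly moved in the last step.

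Of the adipocyte markers (6 of 6 named), all but LPL were called downregulated at 24 h against 0 h. LPL was lower in 7 of 7 animals at that time without a call (log2 fold change -0.39, edgeR FDR 0.13). Against 6 h, ADIPOQ differed by -6.00, LEP by -6.35, CIDEC by -5.39 and LPL by -0.36 on the log2 scale at 24 h. The sum of the 6 adipocyte markers went only from 250 to 515 CPM at 0 h to 93 to 198 CPM at 72 h. LPL was 1.68-fold lower at 72 h, while the other 5 were 12.1-fold (PLIN1) to 178-fold (ADIPOQ) lower. Macrophage markers (3 of 4) summed to 20.8 to 79.4 CPM at 0 h and 4.68 to 28.6 CPM at 72 h, with medians of 36.4 CPM at 6 h, 45.3 CPM at 24 h and 21.4 CPM at 48 h. The fibroblast marker PDGFRA (1 of 4) had medians of 56.7 CPM at 6 h, 57.7 CPM at 24 h, 43.5 CPM at 48 h and 30.5 CPM at 72 h. The medians of these 2 lists were thus lower at 48 h and 72 h than at 24 h.

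The erythroid markers (2 of 3) were highest at 48 h, with 0.126 to 72.1 CPM (median 5.02) against 0.121 to 4.21 CPM at 6 h (median 0.476) and 0.152 to 5.90 CPM at 72 h (median 0.406). HBB and HBA were therefore higher at 48 h than at 6 h, by 4.24 and 3.89 on the log2 scale, in the same libraries in which the 18 genes were compared. None of the 4 endothelial markers carried a symbol. The part of cell composition in the changes of the 20 genes was not tested. Symbols were given only for DE genes, so that the marker lists are incomplete and markers that did not change are not in these sums.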

How the data were processed

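Read counts of 35 samples (7 animals, 5 time points) were used as deposited. The authors trimmed reads with Trimmomatic (0.39), checked them with FastQC (0.11.8), mapped them with STAR (2.7.0f) to ARS-UCD1.2 and counted them per gene with featureCounts (1.6.4), and the deposited values are raw counts of the reverse strand, neither normalized nor filtered. All columns were used (0 left out).

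Computed here: edgeR (4.0.16, R 4.3.3), filterByExpr by time point with a minimum count of 10, TMM, and a quasi-likelihood fit of time point and animal on all 35 samples, with Benjamini-Hochberg adjustment over 14630 genes. A call needed a fold change above 1.5 and an FDR below 0.05. Levels are TMM-scaled CPM, and log2 values per sample used a prior count of 2. Standard errors come from the fit. The script was tested on simulated counts. Samples of an animal deviated together from the time point means (median r 0.58 over 70 pairs, 0.29 to 0.77), against a median of -0.12 over 525 pairs of different animals, so that animal pairs the samples. Alternatives were DESeq2 (1.42.0), limma voom (3.58.1), other scalings and filters, no animal block, RIN as a covariate, the FDR alone, the 14 samples compared, and each animal left out. For 48 h against 6 h, the FDR alone together with each other alternative was added after seeing the data.

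The members, classes and lists were chosen with earlier results of these data known. All 20 members are named, and of the other splicing list the genes called at 72 h. Symbols came from the study's lists of DE genes (3106 of 3640 identifiers had one), and the fold changes and p-values there were not used. Whole families by reference symbol, and protein and promoter features, were planned and not analysed here, because no table used here pairs the identifiers with symbols or gives sequences. Gene coordinates are not given for the same reason.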

Additional observations from a re-analysis of the deposited data

Results flagged for a closer look

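In groups of 7 animals, the highest or lowest value was compared with its nearest neighbour relative to the range of the group (Dixon's rule), for the 20 genes at each time point and for the 3 classes in each comparison. Of 118 groups, 9 held a value that stood apart, 5 of 100 for single genes and 4 of 18 for classes, and chance alone marks about 1 in 20 independent groups. These groups share animals and libraries and are not independent, so that neither count was tested against that rate.

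Animal 202 had the highest DDX3X at 72 h, 164 CPM with the next animal at 112 CPM, and the highest RBM27 at 72 h, 13.7 CPM with the next at 7.96 CPM. Animal 107 stood above the others at 6 h in RBM15 (23.0 CPM, next 17.4 CPM) and RBM33 (39.7 CPM, next 30.1 CPM). Animal 206 had the highest RBM25 at 24 h (72.8 CPM, next 60.5 CPM).

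Among the class means, which are log2 differences within an animal, all 4 values that stood apart were those of animal 206. At 24 h against 0 h it was lowest for the RBM genes (-0.37, next -0.11) and for the SR and helicase genes (-0.38, next -0.11), and at 24 h against 6 h for the SR and helicase genes (-0.35, next -0.03). At 48 h against 6 h it was highest for the SNRP, SF3 and LSM genes (0.71, next 0.39).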

How the results depend on the processing

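The numbers called at 72 h were 12 and 8 by DESeq2 and without the animal block and 11 and 8 by limma voom, and ranged from 11 to 12 and from 6 to 8 when an animal was left out. With RIN as a covariate they were 8 and 5, those downregulated at 48 h 1, and the downregulated genes of the other splicing list 2. By the FDR alone, 3 genes were upregulated at 24 h, at 48 h 12 were upregulated and 7 downregulated, and for 48 h against 6 h there were 11 higher and 5 lower genes. Limma voom called 1 gene downregulated at 24 h. At 48 h against 6 h by the FDR alone, the fit without the replicate block (no pairing by animal) gave 6 higher and 1 lower, and that with RIN 3 lower. Leaving out 1 animal gave 0 to 1 downregulated at 24 h (1 without animal 103), 0 to 1 upregulated at 48 h (1 without 202), 1 to 4 downregulated at 48 h (4 without 104 or 202, 1 without 206), 0 to 1 downregulated at 48 h against 6 h (1 without 104), 9 to 12 higher and 3 to 6 lower there by the FDR alone (3 without 107), and a median of the RBM genes at 6 h of -0.07 to 0.05 (0.05 without 107). Of 526 such values recomputed, 506 stayed within their margins. Over 340 recomputed fold changes at 72 h none reversed and 24 fell short of the threshold, in PRPF40B, RBM15, RBM33, RBMX2, DHX36, SRSF11 and SF3A2, all 7 with RIN and DHX36, RBMX2 and SRSF11 with RIN only, while the other 13 genes kept every call. The share of all tested genes called in each alternative is not given here, so that a general change in calls cannot be told from a change in these genes. The causes were not tested. RBM47, with 15 to 236 reads per library, is the gene whose depth limits its precision most.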
